A study of Sus scrofa with 20 samples.

Results

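The genes described here are the interferon regulatory factors and STATs, the interferon-induced antiviral genes, the TRIM family and the genes of the swine leukocyte antigen complex (SLA, the pig MHC), as measured in pig kidney. They were chosen by name: every gene with a single symbol on the array that starts with IRF, IFI, GBP, OAS, ISG, STAT and a digit, TRIM or SLA-, together with MX1, MX2, DDX58, RSAD2, USP18 and TAPBP, and without IRF1, IRF7 and GBP1. This gave 52 of the 6765 genes with a single symbol. TAP2 belongs to the same rule, and no probe set carried that symbol alone. Each gene was read through its brightest probe set, the one with the highest mean over all 20 arrays.

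Total RNA came from kidneys of 20 pigs, with 1 array per animal. In the 10 control animals only anaesthesia, a burr hole and catheters had been applied. In the other 10, neurologic death (ND) was brought about after the same preparation by inflating a balloon catheter under the dura, and then verified. All animals were ventilated for 6 h, with 0.9% saline boluses of 2 cc/kg as needed to hold the mean arterial pressure above 35 mmHg. The labels give no strain, sex or age, and describe no treatment beyond these. Values are log2 signals per probe set. Each difference subtracts the control mean from the ND mean (n = 10 and 10), so that 1 unit is a doubling. The test was limma, adjusted by Benjamini-Hochberg across 23999 probe sets. A gene is said to have risen or fallen only where its adjusted p was under 0.05.

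Interferons act through cell surface receptors and the JAK kinases on STAT proteins. STAT2 and IRF9 belong to the complex that switches on antiviral genes after type I interferon, while IRF1 and IRF8 take part in the response to interferon gamma. Antiviral products such as MX1, OAS1, the IFIT proteins, RSAD2 and ISG15 act within infected cells. MHC class I molecules display peptides from inside the cell on nearly all nucleated cells, and class II molecules display ingested material, chiefly on dendritic cells, macrophages and B cells, and in kidney also on endothelium and tubule cells under stimulation. TRIM proteins are mostly ubiquitin ligases, and a subset of them regulates antiviral sensing.

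Array medians lay between 5.09 and 5.35 and were 0.09 higher in ND (two-sided permutation p = 0.00651). The 3′ minus 5′ difference of the GAPDH control probe sets, a measure of RNA degradation, averaged 1.67 in ND and 1.85 in controls (permutation p = 0.0888). For actin it was larger, 4.01 in ND and 4.14 in controls (permutation p = 0.681), and ran from 2.60 to 5.30 on single arrays. The tubule genes LRP2 (mean 13.6 in ND) and AQP1 (mean 13.0 in ND) were far above background. None of 5 measured kidney markers passed, where 9.99% of all genes were called in either direction, so this count says little about tubule content. KCNJ1 was at -0.50 (adjusted p = 0.0758), SLC22A6 at -0.50 (adjusted p = 0.422), AQP1 at -0.03, WT1 at 0.09 and LRP2 at 0.25. Background here means values up to 2.79, the upper end of the tag and tryptophan control probe sets. Animal numbers were unevenly spread, with 7 of 10 ND animals and 1 of 10 controls numbered up to 100. Control_134 read highest of the controls for 9 of the 12 antiviral genes listed below. Of the ND animals, ND_31 read highest for 8 of those 12, and ND_47 for 6 of 12 SLA genes. Some of the results that they bear on, though not all, are also given without 1 of them.

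Of the 52 genes 8 rose in ND and none fell. IRF8, STAT5A, TRIM52, the class I genes SLA-2 and SLA-8 and the class II genes SLA-DMB, SLA-DQB1 and SLA-DQA1 rose, by 0.52 to 1.34. Over all 6765 genes 5.44% rose and 4.55% fell, against 8 of 52 and 0 of 52 here. The median difference was 0.43 for the 52 genes and -0.02 for all genes, and 42 of the 52 differences lay above 0, as did 45.7% of all genes. At an unadjusted p under 0.05, 22 of the 52 were higher and 4 lower, where 14.3% of all genes were higher and 15.7% lower. No gene of the 52 had ND and control values that did not overlap, a feature of 0.591% of all genes. STAT4, TRIM15, TRIM26, TRIM29 and TRIM50 read at background on all 20 arrays, which leaves 47 genes with a level. After arrays were aligned on their medians, which moved the median of all genes to -0.11, 11 of the 52 were higher and 7 lower, where 5.97% of all genes were higher and 24.3% lower. Those 7 were SLA-DMA, TRIM55 and the 5 genes at background, and SLA-DRA, IRF3 and IFI35 joined the 8 higher ones.

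**Figure D1:**
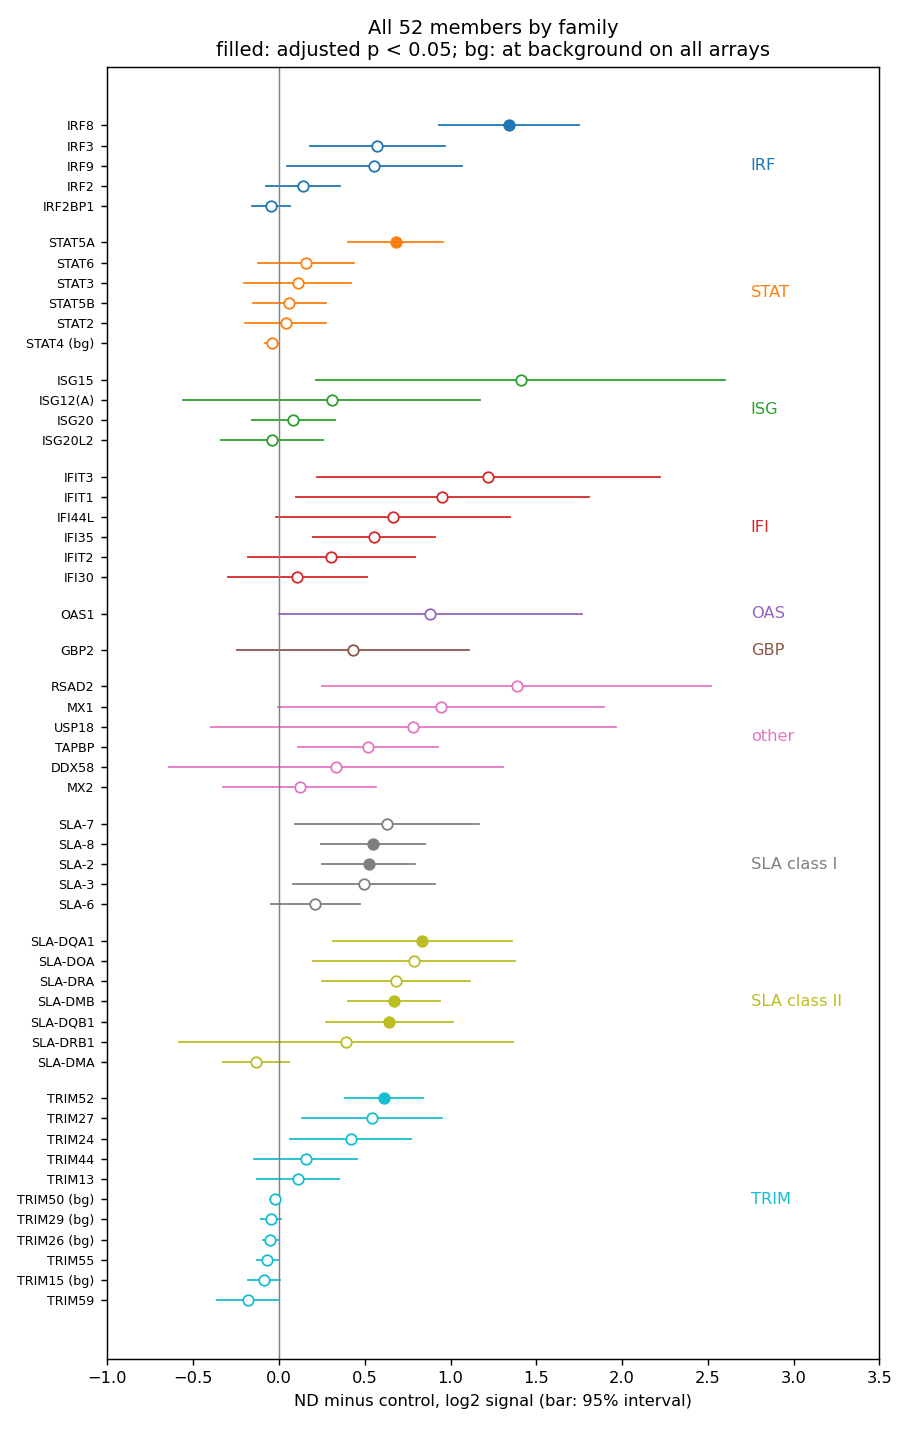
Differences of all 52 genes (horizontal axis, ND minus control in log2 signal, with 95% intervals), grouped by family, with filled points for the 8 genes that passed. Filled points run from 0.52 to 1.34, and the widest intervals belong to antiviral genes such as ISG15 and RSAD2.

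Of the 5 genes among the 52 with names that start with IRF, IRF8 rose and 4 did not pass, where 5.44% of all genes rose. The regulatory factors IRF1 and IRF7, left out by the name rule, rose too (1.04 and 1.08) and are described below. IRF8, a transcription factor of monocytes, dendritic cells and B cells, ranged from 6.37 to 7.82 in ND (median 7.02) and from 4.74 to 6.39 in controls (median 5.65). The groups overlapped narrowly, since 9 of 10 ND animals lay above the highest control. IRF8 rose 2.53-fold, a difference of 1.34 ± 0.19 (SE; adjusted p = 0.000373). It was the 1 gene of the 52 that passed with a term for animal numbers up to 100 (1.06, adjusted p = 0.0209), a fit in which 0.872% of all genes were higher and 1.91% lower. Its difference stayed between 1.24 and 1.42 when each animal was left out in turn. IRF3, which turns on interferon beta after a virus is sensed, was at 0.57 (adjusted p = 0.0724) and passed without ND_22 (adjusted p = 0.0239). IRF9 was at 0.56 (adjusted p = 0.143), and at 0.72 without Control_134 (adjusted p = 0.0356). IRF2, an antagonist of IRF1, was at 0.14 (adjusted p = 0.332), and IRF2BP1, a corepressor that binds IRF2, at -0.05 (adjusted p = 0.530).

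STAT5A was the 1 STAT gene of 6 that rose, where 5.44% of all genes did. It transmits signals of growth hormone, prolactin and interleukin 2. Its signal ran from 5.93 to 6.93 in ND (median 6.57) and from 5.20 to 6.07 in controls (median 5.89). Of the ND animals 9 lay above the highest control, and ND_198 was the exception. STAT5A rose 1.60-fold, a difference of 0.68 ± 0.13 (SE; adjusted p = 0.00409). Its dimmer probe sets read 2.69 and 2.40 on average, at or near background, and differed by less than 0.01. STAT5B, its close relative, was at 0.06 (95% interval -0.15 to 0.27, adjusted p = 0.682) by the brightest probe set, and a second probe set rose by 0.40 ± 0.12 (SE, adjusted p = 0.0436). STAT2, the partner of IRF9, was at 0.04 (95% interval -0.20 to 0.27) and at -0.05 with arrays aligned on their medians, where STAT5B was at -0.03. STAT3, which responds to interleukin 6, was at 0.11 (95% interval -0.20 to 0.42), and STAT6, which responds to interleukin 4, at 0.16 (95% interval -0.12 to 0.44).

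**Figure D2:**
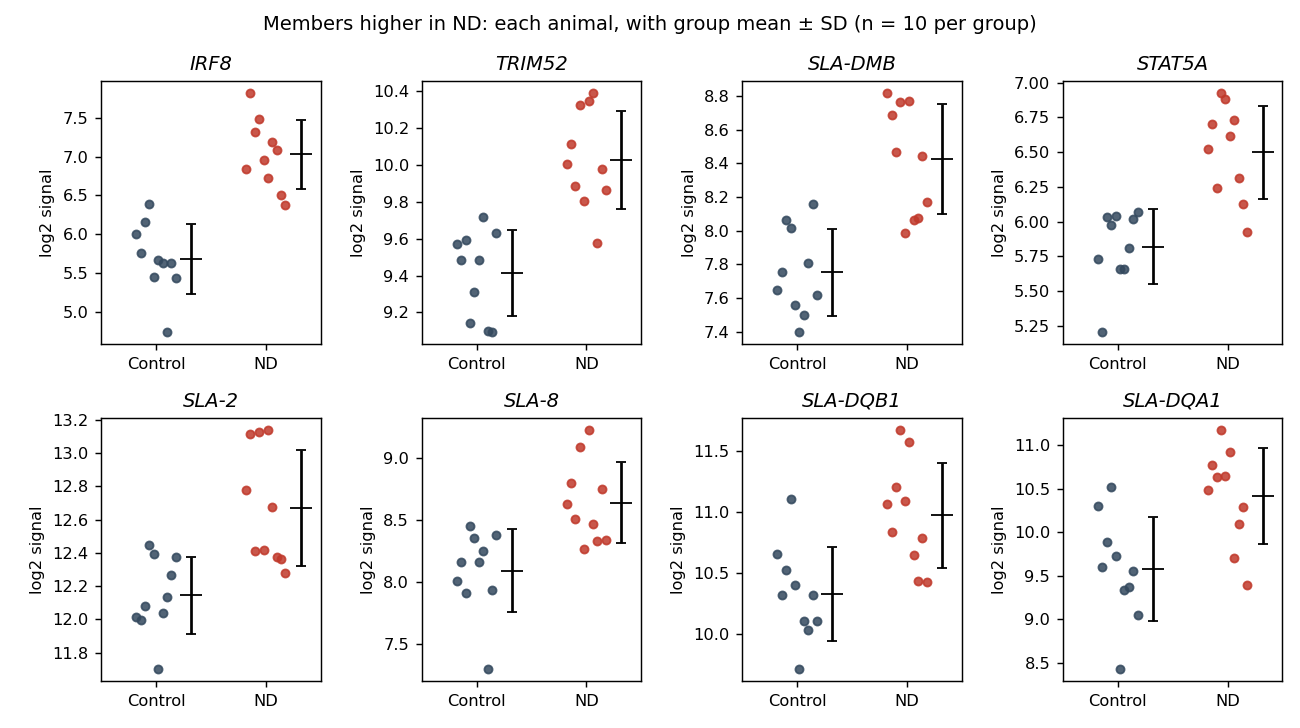
Log2 signal (vertical axes) of each control and ND animal for the 8 genes that rose, with the group mean and SD as bars. Of the 10 ND animals, 9 exceed every control for IRF8, STAT5A and TRIM52, and 3 do so for SLA-DQB1.

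Antiviral interferon-stimulated genes had higher means in ND, varied widely between animals, and none passed. The 12 read here are ISG15, RSAD2, IFIT1, IFIT2, IFIT3, IFI44L, MX1, MX2, OAS1, USP18, DDX58 and ISG12(A). All 12 differences were above 0, as they were with arrays aligned on their medians and with quantile normalization. With the animal number term 11 of 12 were above 0, with a median of 0.38 and DDX58 at -0.50, and from ND_193 and Control_184 upward 11 of 12, with a median of 0.78 and DDX58 at -0.53. They ran from 0.12 to 1.41 with a median of 0.83 and adjusted p-values of 0.114 to 0.700, and 4 of 12 were higher at an unadjusted p under 0.05, where 14.3% of all genes were higher. Their SD within groups had a median of 1.01, against 0.43 for the 12 SLA genes, and for 10 of the 12 it was above that of 90% of all genes.

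ISG15, a ubiquitin-like protein that is attached to newly made proteins, shows the spread. In ND it ran from 5.26 (ND_194) to 9.90 (ND_31), with a median of 8.08. In controls it ran from 4.95 (Control_199) to 9.06 (Control_134), with a median of 6.45. The 2 groups overlapped over most of their range, with 1 ND animal above the highest control and 9 above the control mean. ISG15 differed by 1.41 ± 0.57 (SE, 95% interval 0.22 to 2.60, adjusted p = 0.123).

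RSAD2 (viperin), which blocks viral replication, ran from 3.74 to 6.88 in ND (median 4.78) and from 2.79 to 7.22 in controls (median 3.53). The highest of all 20 values was that of Control_134. RSAD2 differed by 1.39 ± 0.54 (SE, adjusted p = 0.114), and by 1.76 ± 0.43 (SE, adjusted p = 0.0188) without Control_134. RSAD2 was the 1 antiviral gene of the 12 that passed without that animal, where 4.94% of all genes were higher. A count of 1 of 12 is not a result about these genes. MX1, a GTPase that traps viral particles, was at 0.95 ± 0.45 (SE, adjusted p = 0.172), with its highest ND value of 9.99 in ND_31 next to 9.97 in Control_134. MX2, a relative of MX1, was at 0.12 (95% interval -0.33 to 0.57).

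The IFIT proteins bind foreign RNA. IFIT3 differed by 1.22 ± 0.48 (SE, adjusted p = 0.115), IFIT1 by 0.95 ± 0.41 (SE, adjusted p = 0.137) and IFIT2 by 0.31 ± 0.23 (SE, adjusted p = 0.353). OAS1, which makes the activator of the antiviral nuclease RNase L, differed by 0.88 (95% interval -0.002 to 1.77), and IFI44L by 0.66 (95% interval -0.02 to 1.35). USP18, the protease that removes ISG15 and restrains interferon receptor signalling, was at 0.78 (95% interval -0.40 to 1.96), and Control_134 again read highest of all 20 animals, at 7.87. DDX58 (RIG-I), the sensor of viral RNA, was at 0.33 (95% interval -0.64 to 1.31). Its highest ND value was in ND_100, which read lowest of the ND animals for IFIT1, IFI44L and ISG12(A). ISG12(A) was at 0.31 and at -0.01 without ND_31, which read 10.6, far above the other ND animals.

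Control_134 had the highest control value for 9 of the 12 antiviral genes and ND_31 the highest ND value for 8. The mean level of the 12 was 7.52 in Control_134 and 4.93 to 6.16 in the other controls. In ND it was 7.96 in ND_31, 7.48 in ND_22, 6.91 in ND_47, 6.75 in ND_01 and 6.67 in ND_193, and 5.16 to 6.33 in the rest. Without Control_134 the median difference of the 12 was 1.09, and without ND_47 it was 0.70.

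**Figure D3:**
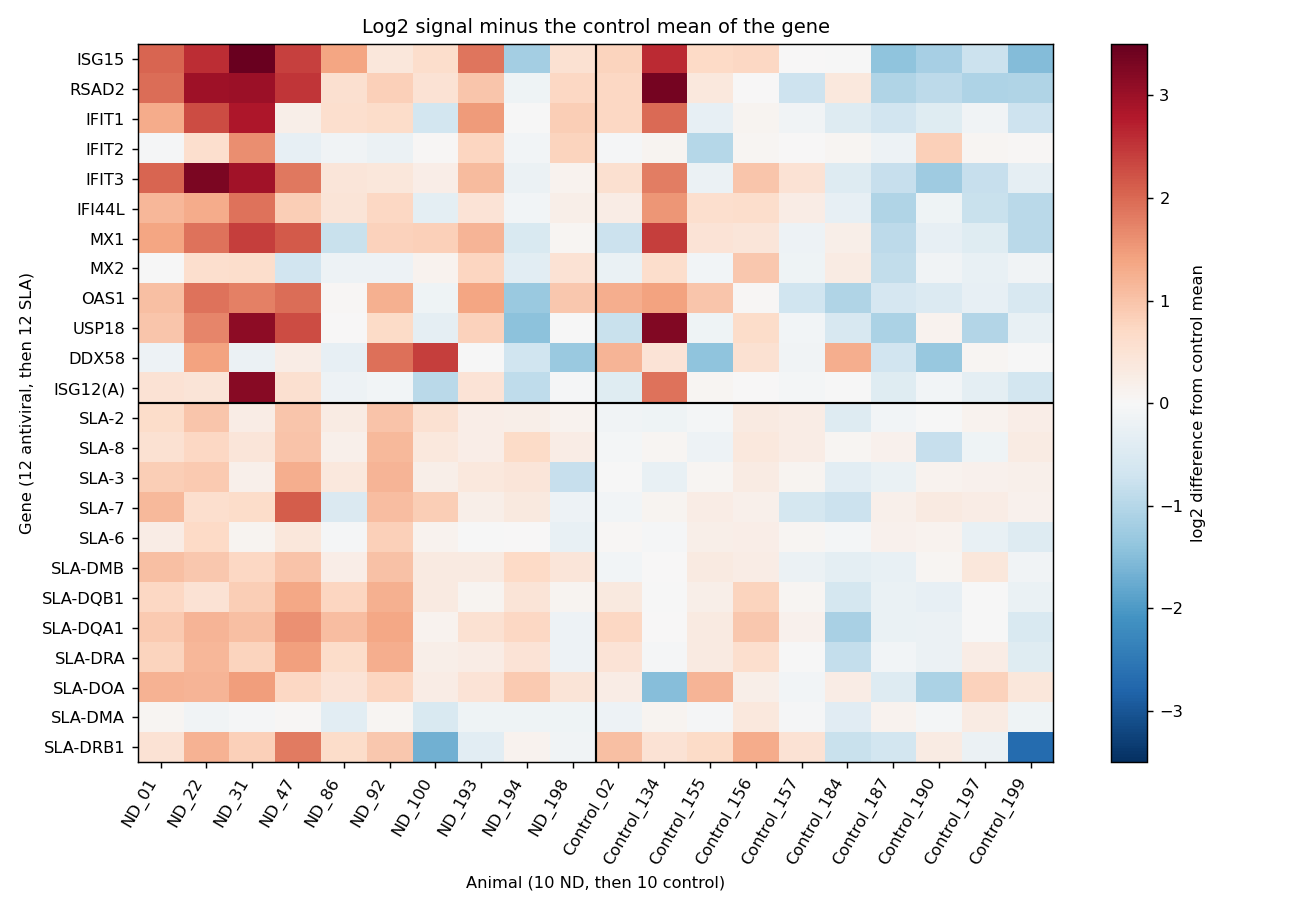
Heat map of the 12 antiviral genes (upper rows) and 12 SLA genes (lower rows) in each of 20 animals, coloured by log2 signal minus the control mean of the gene. Control_134 is red in most antiviral rows, with a mean antiviral level of 7.52, and close to the control mean in most SLA rows, with a mean SLA level of 8.75 within the control range of 8.40 to 9.33.

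Other interferon-induced genes moved little or did not pass. IFI35 was at 0.55 ± 0.17 (SE, adjusted p = 0.0535) and passed without ND_193, ND_194 or Control_157 (adjusted p 0.0296 to 0.0363). GBP2, an interferon-induced GTPase, was at 0.43 (95% interval -0.24 to 1.11). IFI30, the lysosomal reductase that prepares antigens for class II, was at 0.11 (95% interval -0.30 to 0.51). ISG20, an RNA exonuclease, read at background on all controls and on 9 of 10 ND arrays, with 3.52 in ND_31. ISG20L2, a nucleolar exonuclease of the same family, was at -0.04 (95% interval -0.34 to 0.26).

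All 5 class I genes had differences above 0, and 2 of them rose. Of all genes 45.7% had differences above 0 and 5.44% rose. SLA-2, a classical class I gene, ran from 12.28 to 13.14 in ND (median 12.55) and from 11.70 to 12.45 in controls (median 12.11). Of the ND animals 5 lay above the highest control. SLA-2 rose 1.44-fold, by 0.52 ± 0.13 (SE; adjusted p = 0.0176). SLA-8, a non-classical class I gene, ran from 8.26 to 9.23 in ND (median 8.57) and from 7.29 to 8.45 in controls (median 8.16), and 7 ND animals exceeded the highest control. SLA-8 rose 1.46-fold, by 0.55 ± 0.14 (SE; adjusted p = 0.0248), and its second probe set rose by 0.51 (adjusted p = 0.0124). The classical gene SLA-3 was at 0.50 (adjusted p = 0.120) and at 0.64 without ND_198, its lowest ND animal (adjusted p = 0.0120). The non-classical genes SLA-7 and SLA-6 were at 0.63 (adjusted p = 0.125) and 0.21 (adjusted p = 0.242). Class I genes are near-identical in sequence, so their probe sets can read each other's transcripts and the 5 are not independent readings. TAPBP (tapasin), which holds class I molecules at the peptide transporter, was at 0.52 ± 0.20 (SE, adjusted p = 0.105) and passed without ND_31 (adjusted p = 0.0351).

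Of 7 class II genes 3 rose, where 5.44% of all genes did. SLA-DMB, a chain of the DM molecule that loads peptides onto class II, ran from 7.98 to 8.82 in ND (median 8.45) and from 7.40 to 8.16 in controls (median 7.70). All 10 ND animals were above the control mean and 7 above the highest control. SLA-DMB rose 1.59-fold, by 0.67 ± 0.13 (SE; adjusted p = 0.00357). The other chain of DM, SLA-DMA, gave different answers by its 2 probe sets. The brighter one was at -0.14 (adjusted p = 0.300; -0.23, adjusted p = 0.0492, with arrays aligned on their medians), and the dimmer one rose by 0.87 ± 0.24 (SE, adjusted p = 0.0365). Over the 20 arrays the 2 probe sets correlated with r = 0.19, a description.

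Among the chains that present antigen, both DQ genes rose, with overlapping groups. SLA-DQB1 ran from 10.4 to 11.7 in ND (median 10.9) and from 9.72 to 11.1 in controls (median 10.3), and 3 ND animals exceeded the highest control. It rose by 0.64 ± 0.18 (SE, adjusted p = 0.0321). SLA-DQA1, the partner chain, ran from 9.40 to 11.2 in ND (median 10.6) and from 8.43 to 10.5 in controls (median 9.58), with 5 ND animals above the highest control. SLA-DQA1 rose by 0.84 ± 0.25 (SE, adjusted p = 0.0487). SLA-DRA was at 0.68 ± 0.21 (SE, adjusted p = 0.0516), just short of the threshold, and SLA-DOA, part of the DO molecule that restrains DM, at 0.79 ± 0.28 (SE, adjusted p = 0.0934). SLA-DRB1 was at 0.39 (95% interval -0.58 to 1.36), with values from 7.27 to 11.3 among controls alone.

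Both DQ calls were lost when any of several animals, from either group, was left out. The differences stayed at 0.57 to 0.73 for SLA-DQB1 and 0.71 to 0.95 for SLA-DQA1. SLA-DQB1 lost its call without ND_86, ND_92, Control_184, Control_187 or Control_190 (adjusted p 0.0540 to 0.0611). SLA-DQA1 lost it without ND_01, ND_22, ND_31, ND_47, ND_86, ND_92, ND_194, Control_134, Control_155, Control_157, Control_184, Control_187, Control_190, Control_197 or Control_199 (adjusted p 0.0577 to 0.0904). SLA-DRA gained one without ND_100, ND_193, ND_198, Control_02 or Control_156 (adjusted p 0.0200 to 0.0437), and SLA-DOA without Control_155 (adjusted p = 0.0455). Calls of IRF8, STAT5A, TRIM52, SLA-2, SLA-8 and SLA-DMB held without any single animal. Without ND_47 and ND_92 together, IRF8, STAT5A, TRIM52 and SLA-DMB passed, and SLA-2 (0.41, adjusted p = 0.0506) and SLA-8 (0.42, adjusted p = 0.0704) did not, where 4.24% of all genes were higher and 3.75% lower. SLA-DQA1 was the 1 gene of the 8 that lost its call without ND_47 alone (0.75, adjusted p = 0.0783).

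Leukocyte transcripts also differed between the groups, and in whole tissue more cells of a type cannot be told apart from more RNA per cell. Over all genes 5.44% rose and 4.55% fell, shares to set beside each count below. Of 10 measured T and NK cell markers 5 rose (CCL5, GNLY, CD8A, LCK and CD3E), none fell, and CD4 and PRF1 read at background on all arrays. The mean level of the list was 3.58 to 5.08 in ND and 3.14 to 3.83 in controls. Among 12 macrophage and dendritic cell markers CTSS, LAPTM5, TYROBP and CD83 rose, CD163, MRC1 and CD14 fell, and ITGAM was at background; the mean level was 5.61 to 6.82 in ND and 5.57 to 6.30 in controls. None of 4 B and plasma cell markers passed, with CD79B and CD38 at background on all arrays and a mean level of 5.65 to 6.78 in ND and 5.76 to 6.38 in controls. Of 8 endothelial markers CLDN5 rose, 1 call that cannot be told apart from the share of all genes. KDR was at background, and mean levels of the 8 were 6.17 to 7.79 in ND and 6.40 to 6.81 in controls. Of 6 neutrophil markers FCGR3A and ITGB2 rose, while TREM1, S100A8 and S100A12 were at background. S100A9, above background on 8 ND and 9 control arrays, was at -0.31 (adjusted p = 0.694). The median difference of the 6 was -0.02, with mean levels of 3.72 to 4.80 in ND and 3.73 to 4.48 in controls. The part of these cell types in the rise of IRF8 and of the SLA genes was not tested.

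Of 11 TRIM genes TRIM52 rose and 10 did not pass, where 5.44% of all genes rose. A count of 1 in so short a list is not a result about the family. On all arrays 4 of the 11 read at background. The differences of the 7 with a level ran from -0.18 to 0.61. The median of -0.02 over all 11 was the value of TRIM50, a gene at background. TRIM52, a ubiquitin ligase, ran from 9.57 to 10.4 in ND (median 9.99) and from 9.09 to 9.72 in controls (median 9.48). The lowest ND animal, ND_193, was the 1 of 10 within the control range. TRIM52 rose 1.53-fold, by 0.61 ± 0.11 (SE; adjusted p = 0.00213), and its dimmer probe sets were at 0.53 (adjusted p = 0.109) and 0.48 (adjusted p = 0.125). TRIM27 was at 0.54 (adjusted p = 0.0962) and TRIM24, a coregulator of nuclear receptors, at 0.42 (adjusted p = 0.122). TRIM44 was at 0.16 and TRIM13, a ligase of the endoplasmic reticulum, at 0.11, both with intervals across 0. TRIM59 was dim, at 3.14 in ND and 3.32 in controls (difference -0.18, adjusted p = 0.157). TRIM55, a muscle protein, read above background on 7 ND and 10 control arrays (-0.07, adjusted p = 0.145). The 4 at background were TRIM15, TRIM26, TRIM29 and TRIM50.

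Several genes had more than 1 probe set, which gives a second reading of the same RNA. The 52 genes had 75 probe sets, of which 23 in 16 genes were not the brightest, and 8 of these read at background on all arrays. Of the 23, 3 rose: those of SLA-8, SLA-DMA and STAT5B. Over all genes 5.24% of such further probe sets were called in either direction, and 9.99% of brightest ones. IFIT1 had a second probe set at 0.82 (adjusted p = 0.105) and another at -0.06 (adjusted p = 0.567). The 3 probe sets of IFI44L were at 0.66, 0.55 and 0.30, and the 2 of DDX58 at 0.33 and 0.40.

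**Figure D4:**
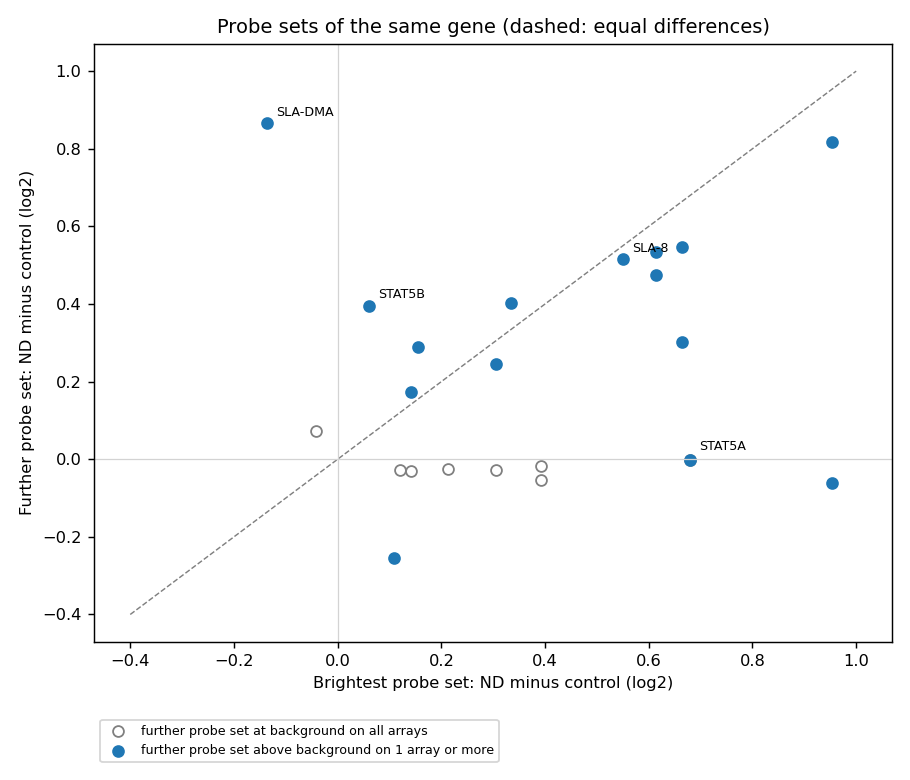
Each further probe set of a gene (vertical axis, ND minus control in log2 signal) against the brightest one (horizontal axis), with open points for probe sets at background on all arrays. SLA-DMA lies far above the line of equal differences, with 0.87 against -0.14, and STAT5B above it, with 0.40 against 0.06.

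Genes of the same pathways outside the name rule also included several that rose. Of 60 listed, 38 were measured, 10 rose and none fell, with a median of 0.34, where 5.44% of all genes rose. In antigen processing, the peptide transporter TAP1 rose by 1.12 ± 0.19 (SE, adjusted p = 0.00161), with 8.86 to 10.5 in ND and 8.06 to 8.64 in controls and no overlap. The proteasome activator genes PSME2 (0.76, adjusted p = 0.0137) and PSME1 (0.36, adjusted p = 0.0364) rose as well. The interferon-inducible proteasome subunits PSMB10 (1.11, adjusted p = 0.0531) and PSMB8 (1.10, adjusted p = 0.0710) did not pass, nor did the class II chaperone CD74 (0.44, adjusted p = 0.0686). B2M, the light chain of class I, was at 0.23 (adjusted p = 0.0940). CIITA, the master regulator of class II, read above background on 1 array only.

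Among regulators and receptors, IRF1 rose by 1.04 ± 0.23 (SE, adjusted p = 0.00855) and IRF7 by 1.08 ± 0.22 (SE, adjusted p = 0.00634). The type I interferon receptor chain IFNAR1 rose by 0.87 ± 0.21 (SE, adjusted p = 0.0170) and the kinase TYK2, which is bound to it, by 0.49 ± 0.09 (SE, adjusted p = 0.00271). UBD, a ubiquitin-like gene induced by interferon gamma and TNF, rose by 1.80 ± 0.34 (SE, adjusted p = 0.00370), the nuclease SAMHD1 by 0.81 ± 0.20 (SE, adjusted p = 0.0151) and GBP1 by 1.72 ± 0.48 (SE, adjusted p = 0.0350). The interferon genes IFNG and IFNB1 and the inhibitor SOCS3 read at background on all arrays, and IFNA1 was above it on all arrays (3.41 in ND, 3.44 in controls, adjusted p = 0.625). None of the 10 pathway genes that rose passed in limma with the animal number term (differences 0.26 to 1.40, adjusted p 0.0645 to 0.479). None passed from ND_193 and Control_184 upward either (0.18 to 1.37, adjusted p 0.103 to 0.624). Few genes passed in these fits, since 0.872% of all genes were higher with the term and 0.148% in the subset. In that subset SAMHD1 was at 0.18, IFNAR1 at 0.38 and TYK2 at 0.25. With the mean of all probe sets TYK2 was at 0.07 (adjusted p = 0.0679), GBP1 at 1.52 (adjusted p = 0.0631) and TAP1 at 0.35 (adjusted p = 0.00223). The call of GBP1 was lost when any of Control_134, Control_155, Control_184, Control_187, Control_190, Control_197, ND_01, ND_22, ND_47 or ND_92 was left out, and that of PSME1 without ND_31, ND_47, ND_86, ND_92, Control_02, Control_184, Control_187, Control_190, Control_197 or Control_199 (adjusted p 0.0512 to 0.0674).

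Within each group ISG15 and RSAD2 varied together between animals, as did the class II genes SLA-DRA and SLA-DQA1. Of gene pairs, 12 were examined in each group of 10 animals, 24 correlations in all, chosen after the values were seen. ISG15 and RSAD2 correlated in ND (r = 0.90, rho = 0.89, permutation p = 0.00026 and 0.00105, adjusted p = 0.00112 and 0.00420) and in controls (r = 0.93, rho = 0.84, permutation p = 0.00024 and 0.00372, adjusted p = 0.00112 and 0.00992). Without the 2 animals farthest from the median of ISG15, r was 0.85 in ND and 0.86 in controls. SLA-DRA and SLA-DQA1 correlated in ND (r = 0.96, rho = 0.96, permutation p = 2e-05 and 7e-05, adjusted p = 0.00024 and 0.00144) and in controls (r = 0.96, rho = 0.95, permutation p = 2e-05 and 0.00012, adjusted p = 0.00024 and 0.00144), with r = 0.92 and 0.91 without the 2 farthest animals.

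The 1 pair that joined an antiviral and an SLA gene did not pass. ISG15 and SLA-2 had r = 0.25 and rho = 0.27 in ND (permutation p = 0.496 and 0.448, adjusted p = 0.567 and 0.512) and r = -0.23 and rho = -0.24 in controls (permutation p = 0.528 and 0.515, adjusted p = 0.576 and 0.562). ISG15 and DDX58 had r = 0.03 and rho = 0.18 in ND (permutation p = 0.932 and 0.633, adjusted p = 0.932 and 0.661). SLA-2 and TAP1 correlated in ND (r = 0.88, rho = 0.87, permutation p = 0.00181 and 0.00228, adjusted p = 0.00543 and 0.00782; r = 0.94 without the 2 farthest). In controls they gave r = 0.64 and rho = 0.50 (permutation p = 0.0468 and 0.144, adjusted p = 0.0702 and 0.215), and r = -0.02 without Control_156 and Control_184. SLA-2 and SLA-DRA gave r = 0.84 in ND and 0.47 in controls (adjusted permutation p = 0.00751 and 0.219). SLA-2 and IRF1 gave r = 0.76 in ND and 0.08 in controls (adjusted permutation p = 0.0138 and 0.875). By rank they gave rho = 0.67 and 0.14 (adjusted permutation p = 0.0670 and 0.708), so in ND the pair passed by r only. SLA-DRA and CD74 gave r = 0.84 and rho = 0.77 in ND (permutation p = 0.00343 and 0.0126, adjusted p = 0.00751 and 0.0275) and r = 0.94 and rho = 0.94 in controls (permutation p = 6e-05 and 0.00021, adjusted p = 0.00048 and 0.00168). IRF8 and SLA-DRA gave r = 0.55 and rho = 0.49 in ND (permutation p = 0.101 and 0.152, adjusted p = 0.135 and 0.215) and r = 0.57 and rho = 0.71 in controls (permutation p = 0.0823 and 0.0271), neither past 0.05 after adjustment.

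**Figure D5:**
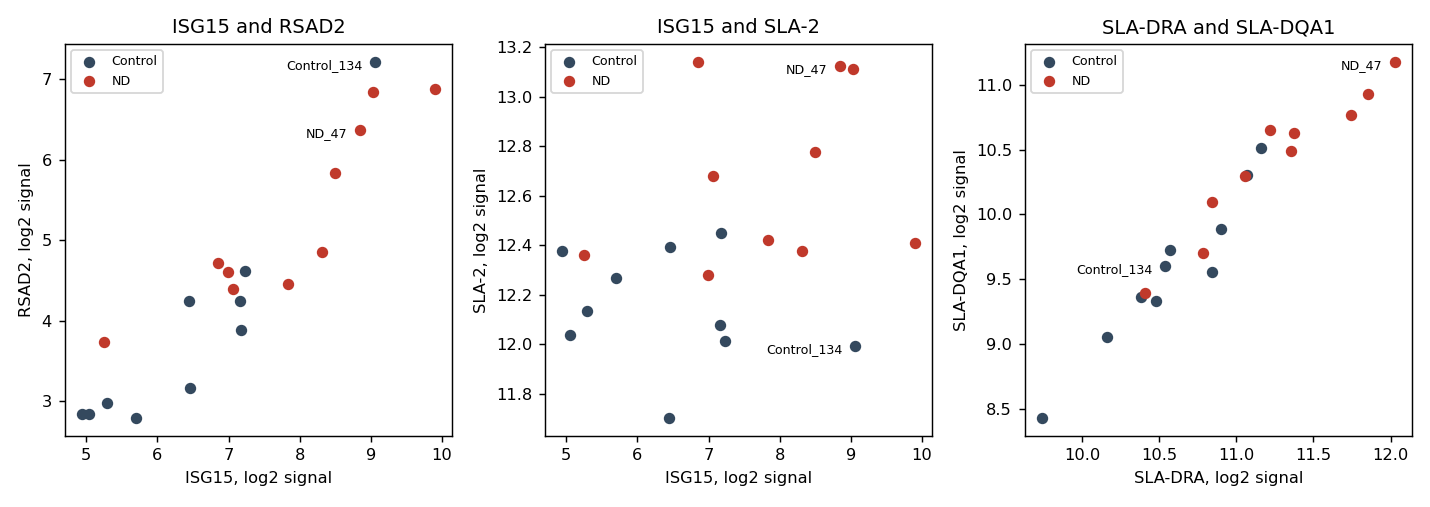
Log2 signals of 3 gene pairs in each animal, with ND and control animals in different colours and Control_134 and ND_47 named. ISG15 and RSAD2 rise together in both groups (r = 0.90 and 0.93), as do SLA-DRA and SLA-DQA1 (r = 0.96 and 0.96), while ISG15 and SLA-2 do not (r = 0.25 and -0.23).

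The uneven animal numbers bear on every call above. With a term for numbers up to 100, all 8 differences stayed above 0 (0.32 to 1.06), and IRF8 alone passed, with TRIM52 at 0.45 (adjusted p = 0.0764), SLA-DMB at 0.58 (adjusted p = 0.0760) and STAT5A at 0.47 (adjusted p = 0.128). Among the 3 ND animals from ND_193 upward and the 5 controls from Control_184 upward, the 8 differences were 0.24 to 1.23. None of the 52 genes passed there in limma, and 0.148% of all genes were higher and 0.177% lower. At an unadjusted p under 0.05, 9 of the 52 were higher and 0 lower, where 8.09% of all genes were higher and 9.68% lower. IRF8 there was at 1.23 (adjusted p = 0.132). Since only Control_02 among controls has a number up to 100, group and number are nearly confounded in that range. At an adjusted p under 0.10, 13 of the 52 genes were higher and 0 lower, where 8.53% of all genes were higher and 7.78% lower.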

How the data were processed

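Affymetrix porcine arrays of 1 colour were hybridised with kidney RNA, 250 ng of total RNA from each of 20 pigs, per the labels' protocols. The authors deposited log2 signals, a unit inferred from their range of 0.882 to 16.2; background correction, summarization and normalization are not given in the sources used here. Groups and animal numbers came from sample titles. Nothing in the labels says how animals or arrays were batched.

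Of 24123 probe sets 124 controls were left out. Gene names came from GEO's platform annotation (10069 probe sets with 1 symbol, 198 with several, 13732 unnamed here). Of the 52 genes, 51 matched RefSeq by Entrez ID and 0 changed symbol. All 23999 probe sets were fitted with limma 3.58.1 (R 4.3.3), without covariates, and the fit was tested on simulated data. Members and lists were chosen with earlier results of these data known. Genes named singly were those that passed, up to 3 per family by smallest p, all SLA genes, genes whose probe sets differed in call, and a fixed list. Outside that rule, and chosen after their values were seen, are ISG20L2, IRF2BP1, IFI30, IFI44L, IFIT2, TRIM13, TRIM15, TRIM29, TRIM44, TRIM50, TRIM55, TRIM59, PSMB8, PSMB10, CD74, CIITA, IFNG, IFNB1, IFNA1, SOCS3 and the single markers. Also tried were quantile or median scaling, removal of dim probe sets, a trended variance, weighted arrays, averaging the probe sets of a gene, a term for animal number and subsets of animals. Permutation tests used 100000 resamples. The number of arrays limits the precision.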

Additional observations from a re-analysis of the deposited data

Results flagged for a closer look

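In 18 of the 126 gene and group combinations examined, 1 animal lay apart from the other 9 by more than the 95% critical value of Dixon's ratio, a gap that chance gives for about 5% of groups. Control_134 accounted for 7 of them. It read high for RSAD2 (7.22, next control 4.61), USP18 (7.87, next 5.27), MX1 (9.97, next 8.04), ISG12(A) (9.33) and IRF9 (7.91, next 6.66). It read low for STAT5A (5.20, next 5.66) and for UBD (5.39, next 6.71). ND_31 read high for ISG12(A) (10.6) and ISG20 (3.52, next 2.41).

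ND_47 read high for ISG20L2 (7.78, next 7.01) and SAMHD1 (10.1, next 9.38), and ND_198 low for SLA-3 (9.94, next 10.9). Among controls, Control_199 read low for SLA-DRB1 (7.27, next 9.18), Control_190 low for SLA-8 (7.29, next 7.91) and Control_184 low for TAP1 (8.06, next 8.34). For genes at background the flagged values were 2.42 for TRIM26 in Control_02, 2.35 for STAT4 in Control_190 and 2.23 for TRIM29 in Control_190.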

How the results depend on the processing

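The count of 8 higher genes became 1 with the animal number term, 0 among the animals from ND_193 and Control_184 upward, 4 without ND_47 and ND_92, and 13 at an adjusted p under 0.10. It was 8 to 11 under the other alternatives, where 5.20% to 7.83% of all genes were higher; the removal of dim probe sets gave 11 of 46 at 7.83%. The count of 0 lower genes became 7 with arrays aligned on their medians. Leaving out each animal gave 6 to 10 higher and 0 lower genes, where 3.93% to 6.40% of all genes were higher, and a median difference of 0.35 to 0.53. That median, 0.43 over all animals, was 0.20 with the animal number term and 0.18 in the subset from ND_193 and Control_184 upward. Signs turned for genes that did not pass. With the animal number term GBP2 was at -0.064, STAT3 at -0.016, SLA-DRB1 at -0.13 and DDX58 at -0.50. In the subset from ND_193 and Control_184 upward ISG20 was at -0.037, TRIM27 at -0.013, DDX58 at -0.53 and STAT2 at -0.11. With aligned arrays ISG20 was at -0.0062, STAT2 at -0.049 and STAT5B at -0.028. With the mean of all probe sets SLA-DMA was at 0.36 and STAT4 at 0.016. Leaving out single animals gave -0.013 (without ND_31) to 0.52 for ISG12(A), -0.034 (without ND_31) to 0.10 for ISG20, and -0.013 (without ND_01) to 0.088 for STAT2. The cause was not tested.

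Quantile normalization of linear intensities was not run, since the values are on a log scale. No paired analysis was possible because the groups share no animal number. Signals near 2.79 limit what dim genes can show.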

Other observations

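In RefSeq gene order, several of these genes lie beside each other. STAT3, STAT5A and STAT5B are consecutive genes, with differences of 0.11, 0.68 and 0.06 by their brightest probe sets, of which that of STAT5A passed; a second probe set of STAT5B rose by 0.40. IFIT2, IFIT3 and IFIT1 are consecutive as well, at 0.31, 1.22 and 0.95, and did not pass. MX2 and MX1 have 1 gene between them and were at 0.12 and 0.95. SLA-DMB, SLA-DMA and SLA-DOA are consecutive, at 0.67, -0.14 and 0.79 by their brightest probe sets, of which that of SLA-DMB passed; the second probe set of SLA-DMA rose by 0.87. Differences between neighbours were not tested. All 12 SLA genes were placed on 1 chromosome.

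The animals at the extremes differed between the antiviral and the SLA genes. Among controls, Control_156 read highest for 9 of 12 SLA genes and Control_184 lowest for 8, whereas Control_134 read highest for 9 of 12 antiviral genes. Among ND animals, ND_47 read highest for 6 SLA genes and ND_92 for 3, and ND_31 read highest for 8 antiviral genes. The mean level of the 12 SLA genes was 8.80 to 9.99 in ND and 8.40 to 9.33 in controls.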
